A study of Homo sapiens with 4 samples.

Results

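The genes examined here are those that lie in the chromosome 22 interval lost in the common 22q11.2 deletion. They were taken as every row of the count table on chromosome 22 with a start position between 18900000 and 21200000, in the GRCh38 positions that the table carries, and no expression value entered the choice. This gave 73 of the 24014 genes in the table, of which 39 were protein-coding and 16 were long non-coding RNAs (lncRNAs), and the rest were mainly pseudogenes and small RNAs. RNA-seq had been performed on 4 libraries of SK-N-SH, a cell line from a human neuroblastoma. In 2 libraries, titled WT and given a wild-type genotype, the treatment label names a lentiviral vector with no insert (control), and in 2 it names a recombinant lentivirus with the lncRNA AP1AR-DT, also listed as AC109347.1 (AP1AR-DT_OE). Going by the treatment labels, all 4 had thus received a lentiviral vector, and no other genetic change was named. The genotype label of AP1AR-DT_OE 2 names AC109347.2 where its title names AC109347.1, so the title was followed. Nothing in the labels says whether the 2 libraries of a group came from separate cultures, and the p-values below therefore measure only the spread between these libraries, which may be technical.

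The 22q11.2 deletion arises between blocks of repeated sequence on chromosome 22 and removes 1 copy of the genes between them. It is known for heart, palate, thymus and parathyroid defects, for which TBX1 is the best studied gene, and for a raised risk of schizophrenia and other psychiatric disorders. Many of its genes act in the mitochondrion, at the synapse, in chromatin or in RNA processing, among them DGCR8, the RNA-binding partner of DROSHA in the complex that cuts primary microRNAs. SK-N-SH was not described as a deletion line in the sources used here, and its copy number at 22q11.2 was not analysed. AP1AR-DT has been studied for bipolar disorder, and the comparison asks whether the RNA of any gene of the interval differs between cells with and without extra AP1AR-DT.

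The libraries held between 21988065 and 26184599 counts, and the genes of the interval took between 0.274% and 0.343% of them. AP1AR-DT, listed as RP11-73K9.2, had 3 and 18 counts in the controls against 680 and 1065 with the insert, with a Log2FC of 6.63. The 7 adrenergic and 5 mesenchymal neuroblastoma markers were above the detection floor in all 4 libraries, and their summed counts lay between 22456 and 27145 and between 152539 and 174648. PRRX1, a mesenchymal marker, had 14724 counts in control 2 and between 1131 and 2432 in the others. Of 5 markers of other cell types, 1 had a row, EPCAM, with between 0 and 14 counts. The controls differed more from each other than the AP1AR-DT_OE libraries did, and results with and without each library are given below. In bulk RNA, fewer cells of a type and less RNA per cell cannot be told apart.

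No gene of the interval was called. DESeq2's Wald test, adjusted over all genes by the Benjamini-Hochberg method, put 0 of the 73 genes under an adjusted p of 0.05, against 33 of 24014, or 0.137%, over the whole table. At an unadjusted p under 0.05 there was 1 of 73, the lncRNA AC006547.15, against 0.816% of all genes. edgeR's quasi-likelihood test called 0 of the 48 genes of the interval that it kept, and also 0 of the 17027 that it kept over the whole table. At an unadjusted p under 0.05 it had 0 of the 48 and 112 of the 17027. AC006547.15 was not among the genes that edgeR kept. With TMM scaling factors in place of DESeq2's size factors, 1 gene of the interval was called, against 37 of 24014 over the whole table. It was again AC006547.15.

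The share of expressed genes in the interval was close to that of the whole table. A normalized read count is the count divided by the size factor of the library, and a mean of 50 or more over the 4 libraries was reached by 41 of the 73 genes (56.2%), of which 34 were protein-coding, and by 55.4% of all genes. These 41 had a Log2FC (AP1AR-DT_OE over control) between -0.82 for DGCR11 and 0.65 for AC006547.13, with a median of 0.03. The median was -0.02 over the 13298 genes of the table at that level, and 0.03 over the 298 genes of the rest of chromosome 22. A Log2FC within 0.25 of 0 was found for 33 of the 41 (80.5%) and for 77.2% of all genes at that level. The smallest unadjusted p among the 41 was 0.223, and their standard errors ran from 0.43 to 0.87.

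These errors limit what the absence of a call says. For 12 of the 41 genes the 95% interval of the Log2FC lay inside 1 in either direction, that is, inside a 2-fold change, and these included SLC25A1, HIRA, MRPL40, SEPT5, AC000089.3, TRMT2A, RANBP1, ZDHHC8, XXbac-B562F10.11, MED15 and CRKL. For the other 29 a change of 2-fold or more in at least 1 direction lay within the interval. The median Log2FC of the 41 also moved with the choice of libraries. It was 0.43 without control 1, -0.27 without control 2, -0.15 without AP1AR-DT_OE 1 and 0.20 without AP1AR-DT_OE 2.

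**Figure D1:**
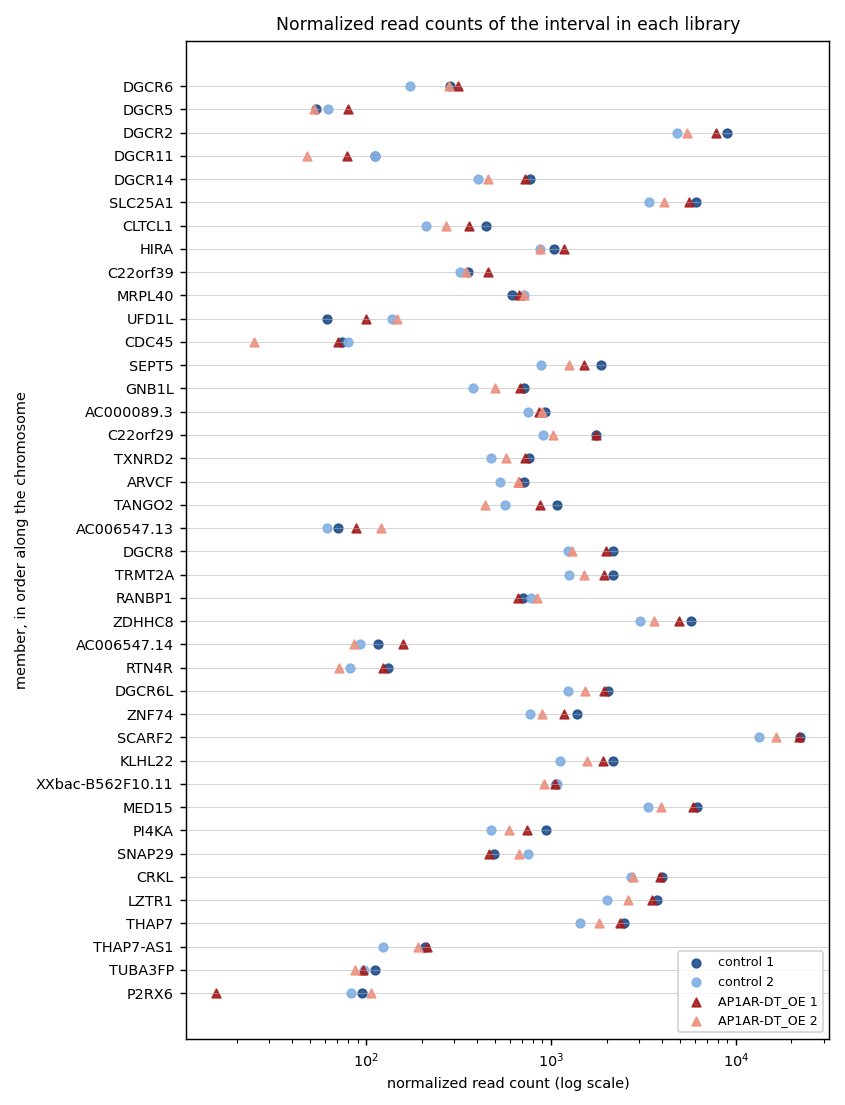
Normalized read count of 40 of the 41 genes with a mean of at least 50, on a log scale, in order along the chromosome. Each point is 1 library. SCARF2 is the highest gene, and in most lines control 2 and AP1AR-DT_OE 2 lie to the left of control 1 and AP1AR-DT_OE 1.

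**Figure D2:**
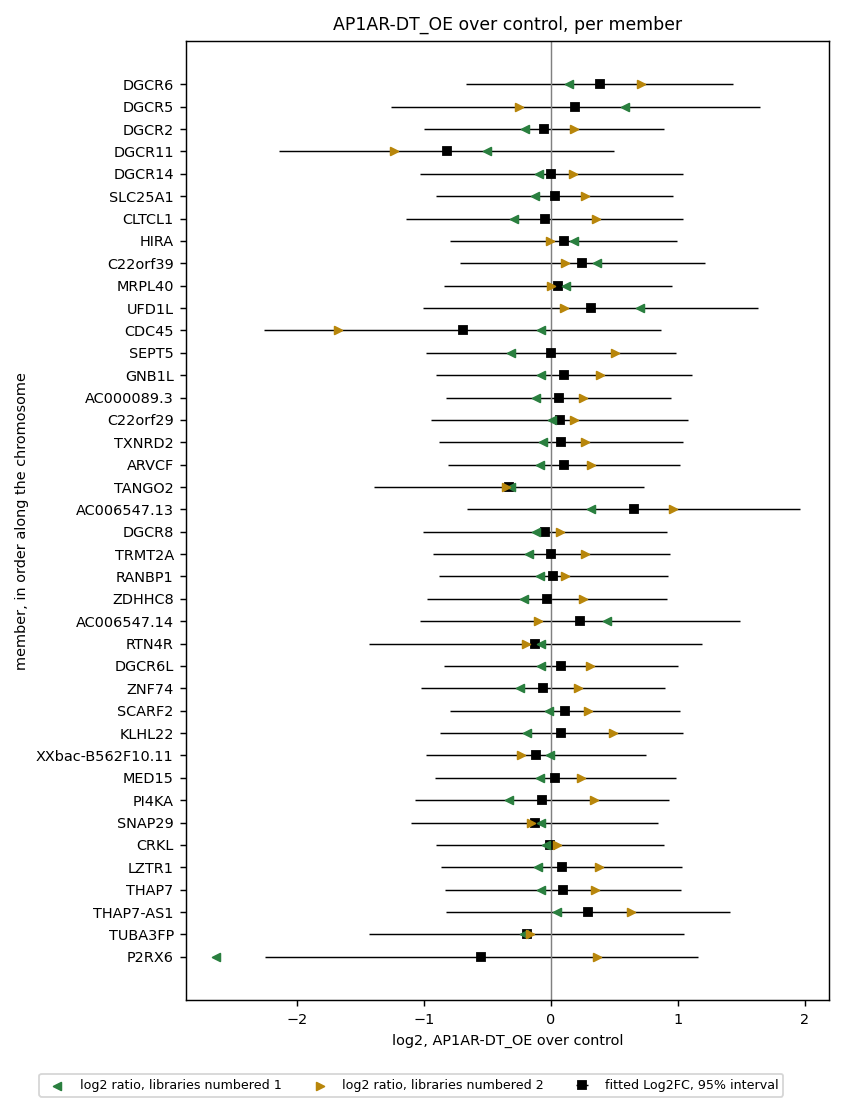
Log2 ratio of AP1AR-DT_OE over control for the same 40 genes. Squares and lines are the fitted Log2FC with its 95% interval, and triangles are the ratios within the libraries numbered 1 and within those numbered 2. Every interval includes 0, and the 2 triangles lie on opposite sides of 0 for most genes.

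Promoter sequences are shown for the genes whose start carries a match to the binding motif of NRF1, since NRF1 is the transcription factor that the study links to AP1AR-DT. The motif was searched on both strands as GCGC followed by any base and then TGCGC. The search ran from 250 bases before to 50 after each RefSeq start site (GRCh38.p14). A match is only a run of letters and not a shown binding site. The NRF1 motifs that the paper predicts in the NEGR1 promoter do not hold this exact string. A gene without a match may therefore still hold an NRF1 site. A match was present for 8 of the 31 genes of the interval with a RefSeq window (25.8%). All 8 were among the 29 with a window and a mean of at least 50 (27.6%), against 13.8% of the 9244 genes of the table at that level with a window and 6.98% of all 27305 genes with one. Over all 35116 windows the share was 5.78%. The median GC content of the longest transcript was 59.0% in the interval and 49.0% over all genes with a mean of at least 50. The part of GC content in these shares was not tested. Each line gives 100 bases of the sense strand, 5′ to 3′, with the motif in capitals.
DGCR14 (chr22:19144666-19144765, - strand): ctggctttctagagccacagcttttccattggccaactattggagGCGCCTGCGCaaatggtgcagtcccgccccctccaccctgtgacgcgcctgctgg
CLTCL1 (chr22:19291690-19291789, - strand): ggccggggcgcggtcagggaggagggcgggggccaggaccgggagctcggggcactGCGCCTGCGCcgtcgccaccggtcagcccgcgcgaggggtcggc
GNB1L (chr22:19854932-19855031, - strand): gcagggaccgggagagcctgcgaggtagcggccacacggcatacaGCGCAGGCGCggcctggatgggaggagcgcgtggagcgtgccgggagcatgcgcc
ZNF74 (chr22:20394081-20394180, + strand): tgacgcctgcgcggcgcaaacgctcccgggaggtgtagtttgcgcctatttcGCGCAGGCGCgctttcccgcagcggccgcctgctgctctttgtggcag
KLHL22 (chr22:20495848-20495947, - strand): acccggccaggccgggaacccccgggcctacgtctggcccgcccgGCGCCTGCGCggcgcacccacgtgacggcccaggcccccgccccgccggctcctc
CRKL (chr22:20917337-20917436, + strand): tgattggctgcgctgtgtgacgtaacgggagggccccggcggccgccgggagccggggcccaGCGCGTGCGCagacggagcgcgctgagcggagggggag
THAP7-AS1 (chr22:21001759-21001858, + strand): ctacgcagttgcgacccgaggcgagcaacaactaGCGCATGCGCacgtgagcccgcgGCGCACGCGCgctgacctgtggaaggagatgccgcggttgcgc
GNB1L and C22orf29, which start at nearly the same base, share the window shown under GNB1L, and its match was counted for both. THAP7-AS1 held 2 matches, and in CRKL the match began 8 bases before the start and so runs across it.

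Genes with and without a match to the searched string had the same median Log2FC to 2 decimals, and their difference was not tested. The 8 had a Log2FC between -0.06 for ZNF74 and 0.30 for THAP7-AS1 with a median of 0.04. The 21 expressed genes with a window but no match ran from -0.82 to 0.38, also with a median of 0.04. NRF1 itself had 573 and 685 counts in the controls against 665 and 597 with AP1AR-DT, with a Log2FC of 0.16.

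Values of single genes below are normalized read counts unless called counts, given for the libraries numbered 1 and then 2, and the error of a Log2FC is its standard error. Of the genes of the mitochondrion, SLC25A1, the citrate carrier of the inner membrane, was the most abundant. Its normalized read count was 6106 and 3406 in controls 1 and 2 and 5613 and 4097 in AP1AR-DT_OE 1 and 2. The groups overlapped, since the AP1AR-DT_OE values lay between those of the controls (Log2FC 0.03 ± 0.48, SE, n = 2 per group, 95% interval -0.90 to 0.96). MRPL40, a protein of the large mitochondrial ribosomal subunit, had 614 and 712 in the controls against 668 and 712 with AP1AR-DT. It was 1 of the few genes that were not lower in control 2 than in control 1, and its groups overlapped (Log2FC 0.06 ± 0.46). TXNRD2, the mitochondrial thioredoxin reductase, had 759 and 472 in the controls against 728 and 569.7 with AP1AR-DT, and again both AP1AR-DT_OE values lay between the controls (Log2FC 0.08 ± 0.49). PRODH, which starts the breakdown of proline, had 7 and 0 counts in the controls against 12 and 4 with AP1AR-DT, and AIFM3, of the apoptosis-inducing factor family, had between 10 and 20 counts. Neither reached the mean of 50, and no fold was formed for them.

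TANGO2, a gene whose loss causes metabolic crises with heart arrhythmia, had the lowest Log2FC of the mitochondrial group. It had 1083 and 563 in the controls against 869.8 and 442 with AP1AR-DT. The group means were 823 ± 368 for control and 656 ± 303 for AP1AR-DT_OE (SD, n = 2), and the lowest library was AP1AR-DT_OE 2 (Log2FC -0.33 ± 0.54, 95% interval -1.39 to 0.74, unadjusted p = 0.546 by DESeq2's Wald test). Within each replicate number the ratio was close, at a log2 of -0.32 for number 1 and -0.35 for number 2. The spread between the 2 libraries of a group was larger than the difference between the group means.

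AC006547.15 (ENSG00000268292), at chr22:20064552-20065705, was the gene of the interval with the largest fitted difference, and it rested on 1 library. Its deposited counts were 2 and 2 in the controls, 6 in AP1AR-DT_OE 1 and 153 in AP1AR-DT_OE 2. The first 3 lie under the detection floor of 12 counts, about 3 read pairs, so that only AP1AR-DT_OE 2 held a measurable level, at least 16.4-fold higher than the floor of control 2 in normalized read counts. The fitted Log2FC was 5.40 ± 1.36 (SE) with an adjusted p of 0.0523 in DESeq2's Wald test, just over the threshold. It was called without AP1AR-DT_OE 1 (adjusted p = 0.00223), and without AP1AR-DT_OE 2 the Log2FC was 1.78 ± 3.54 with an unadjusted p of 0.615. Over the alternatives that kept it as a gene of its own and gave a value, the adjusted p ran from 0.00223 to 0.609.

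All 583 exon bases of AC006547.15 lie inside exons of TANGO2 on the other strand, and whether the counting was strand-specific is not given in the sources used here. Summed with TANGO2, it gave 953 and 732 counts for the controls and 799 and 598 for AP1AR-DT_OE. On the sum the Log2FC was -0.17 ± 0.51, with an adjusted p of 1.00 in DESeq2's Wald test, and the groups overlapped. AC006547.15 made up 0.210%, 0.273% and 0.751% of that sum in control 1, control 2 and AP1AR-DT_OE 1, and 25.6% in AP1AR-DT_OE 2. Thus the library in which AC006547.15 was high was also the library in which TANGO2 was lowest, and the part of the overlap in the result was not tested.

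**Figure D3:**
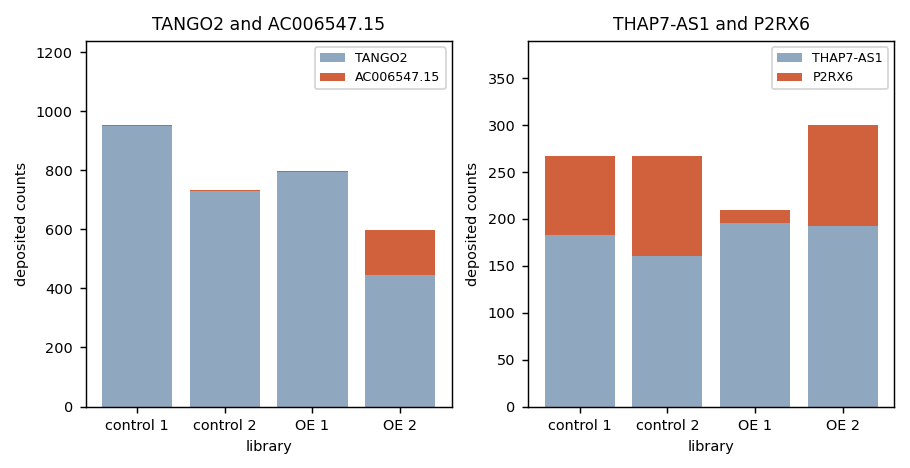
Deposited counts per library of 2 pairs of overlapping genes, stacked. In AP1AR-DT_OE 2 the AC006547.15 part, stacked on that of TANGO2, is 153 counts of a total of 598. In AP1AR-DT_OE 1 the P2RX6 part of the second pair is 14 counts.

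AC006547.13, another lncRNA that runs into the end of TANGO2 from the opposite strand and shares 842 exon bases with it, was the single gene of the 41 with both AP1AR-DT_OE libraries above both controls. Its normalized read counts were 70.6 and 61.7 in controls 1 and 2 and 87.8 and 120.1 in AP1AR-DT_OE 1 and 2. The groups did not overlap, yet the difference was within its error (Log2FC 0.65 ± 0.67, 95% interval -0.66 to 1.96, unadjusted p = 0.329 by DESeq2's Wald test). That is 1 of 41 genes (2.44%), against 5.11% of all genes with a mean of at least 50. In the other direction, 4 of 41 (9.76%) had both AP1AR-DT_OE libraries below both controls, namely DGCR11, CDC45, XXbac-B562F10.11 and TUBA3FP, against 4.35% of all genes at that level.

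DGCR11 had the lowest Log2FC of the 41. It is an lncRNA in an intron of DGCR2 on the same strand (chr22:19046162-19048375), with which it shares no exon base. It had 112 and 112 in the controls against 79.0 and 47.6 with AP1AR-DT, and the controls were nearly equal while both AP1AR-DT_OE libraries were lower. The group means were 112 ± 0.167 for control and 63.3 ± 22.2 for AP1AR-DT_OE (SD, n = 2), and the difference was not past the test (Log2FC -0.82 ± 0.67, 95% interval -2.14 to 0.50, unadjusted p = 0.223, adjusted p = 1.00, DESeq2 Wald). DGCR2, its host, encodes an adhesion receptor and had 9004 and 4822 in the controls against 7825 and 5478 with AP1AR-DT. The host overlapped between the groups, with its AP1AR-DT_OE values between the controls (Log2FC -0.06 ± 0.48).

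CDC45, a subunit of the helicase that opens DNA at replication forks, was low in these libraries. It had 74.0 and 79.5 in controls 1 and 2 and 70.2 and 24.8 in AP1AR-DT_OE 1 and 2. Only AP1AR-DT_OE 2 was far from the rest, and AP1AR-DT_OE 1 stood at a log2 ratio of -0.08 to control 1 (Log2FC -0.69 ± 0.80, 95% interval -2.25 to 0.87, unadjusted p = 0.383). XXbac-B562F10.11, a processed pseudogene inside KLHL22, had 1064 and 1084 in the controls against 1057 and 923 with AP1AR-DT. TUBA3FP, a tubulin pseudogene, had 112 and 98.0 in the controls against 96.5 and 87.3 with AP1AR-DT. For both, the gap between the groups was small beside the fitted error (Log2FC -0.12 ± 0.44 and Log2FC -0.19 ± 0.63), and reads of a pseudogene may be shared with its parent gene.

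The other expressed genes with no assigned role had overlapping groups. DGCR5, a transcribed gene of the interval without a protein product, had 53.5 and 62.5 in the controls against 80.1 and 52.6 with AP1AR-DT (Log2FC 0.19 ± 0.74), and it shares all of its 862 exon bases with DGCR9 on the same strand. AC006547.14, now the protein-coding CCDC188, had 116 and 92.6 in the controls against 158 and 86.4 with AP1AR-DT (Log2FC 0.23 ± 0.64). AC000089.3, a processed pseudogene inside GNB1L, had 934 and 753 in the controls against 861 and 899 with AP1AR-DT (Log2FC 0.06 ± 0.45). THAP7-AS1, which starts within THAP7 on the other strand, had 208 and 123 in the controls against 215 and 192 with AP1AR-DT (Log2FC 0.30 ± 0.57), with control 2 as the low library.

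Of the genes that act in the nucleus, on RNA or in cell division, 12 of 13 had a mean of at least 50, and 0 were called. Their median Log2FC was 0.03, with 9 above 0 and 3 below. DGCR8 had 2159 and 1242 in controls 1 and 2 and 1989.8 and 1305 in AP1AR-DT_OE 1 and 2. Its libraries sorted by replicate number and not by group, with number 1 high and number 2 low in both groups (Log2FC -0.05 ± 0.49). HIRA, a histone chaperone that works outside replication, had 1035 and 877 in the controls against 1176 and 874 with AP1AR-DT, and its groups overlapped (Log2FC 0.10 ± 0.46). HIRA shares 2857 exon bases with C22orf39 on the same strand, and the 2 summed gave a Log2FC of 0.14.

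RANBP1, which acts on the GTPase RAN in nuclear transport and mitosis, was among the steadiest genes. It had 703 and 781 in the controls against 663 and 843 with AP1AR-DT, a spread that covered both groups (Log2FC 0.02 ± 0.46, 95% interval -0.88 to 0.92). TRMT2A, a tRNA methyltransferase whose gene overlaps the start of RANBP1 on the other strand, had 2179.9 and 1254 in the controls against 1933 and 1507 with AP1AR-DT and a Log2FC of 0.00. MED15, a subunit of the Mediator complex that links activators to RNA polymerase, had 6198 and 3354 in the controls against 5849.7 and 3945 with AP1AR-DT, with the controls as the outer values (Log2FC 0.04 ± 0.49).

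DGCR14, now ESS2, a spliceosome-associated protein, had 771 and 406 in the controls against 723 and 458 with AP1AR-DT (Log2FC 0.01 ± 0.53). ZNF74, a zinc finger protein, had 1391 and 769.8 in the controls against 1178 and 894 with AP1AR-DT (Log2FC -0.06 ± 0.49). THAP7, a transcriptional repressor, had 2489 and 1436 in the controls against 2364 and 1826 with AP1AR-DT (Log2FC 0.09 ± 0.47). In all 3, the AP1AR-DT_OE libraries lay between control 2, the lowest, and control 1, the highest. GNB1L, a protein with WD repeats, had a Log2FC of 0.10, C22orf29, now RTL10 and derived from a retrotransposon, had 0.07, and C22orf39 had 0.25, each smaller than its standard error.

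TBX1, the T-box transcription factor of the pharyngeal arches and outflow tract, was at the limit of detection. It had 2 and 4 counts in the controls against 0 and 0 with AP1AR-DT. All 4 values lie under the floor of 12 counts, so no fold was formed, and a difference was not detectable at this depth.

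The 4 genes of protein turnover and signalling adaptors were all expressed and none was called. UFD1L, now UFD1, which with NPLOC4 directs the ATPase VCP to ubiquitinated proteins, had 61.5 and 137 in controls 1 and 2 and 99.8 and 148 in AP1AR-DT_OE 1 and 2. Of the 41 genes it had the highest ratio of control 2 over control 1, and its AP1AR-DT_OE values overlapped the controls (Log2FC 0.31 ± 0.67, 95% interval -1.01 to 1.63). KLHL22, a substrate adaptor of a cullin ubiquitin ligase, had 2176 and 1115 in the controls against 1916 and 1568 with AP1AR-DT (Log2FC 0.08 ± 0.49). LZTR1, a cullin adaptor that acts on RAS-family proteins, had 3764 and 2006 in the controls against 3518 and 2604 with AP1AR-DT (Log2FC 0.09 ± 0.48). CRKL, an adaptor of tyrosine kinase signalling that has itself been linked to the heart and kidney defects of the deletion, had 3995 and 2704 in the controls against 3886 and 2794 with AP1AR-DT. In these last 3 genes both controls lay outside the AP1AR-DT_OE values, and the Log2FC of CRKL was 0.00 with a 95% interval from -0.90 to 0.89.

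Among the 15 genes of membranes, vesicles, adhesion and nerve cells, 13 were expressed at a mean of at least 50 and 0 were called, with 6 Log2FC above 0 and 7 below. SCARF2, a scavenger receptor family protein whose loss causes a skeletal syndrome, was the most abundant gene of the interval. It had 22319.6 and 13411 in controls 1 and 2 and 22102 and 16472 in AP1AR-DT_OE 1 and 2, and again the controls were the lowest and the highest library (Log2FC 0.11 ± 0.46, 95% interval -0.79 to 1.02).

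SEPT5, now SEPTIN5, a septin of presynaptic terminals, had 1875 and 884 in the controls against 1508 and 1256 with AP1AR-DT (Log2FC 0.00 ± 0.50). Its control 1 and control 2 were further apart than those of most genes, and the AP1AR-DT_OE libraries lay between them. ZDHHC8, a palmitoyltransferase, had 5742 and 3044 in the controls against 4962 and 3633 with AP1AR-DT (Log2FC -0.03 ± 0.48). RTN4R, the Nogo receptor that limits axon growth, was low at 131 and 81.8 in the controls against 124 and 71.5 with AP1AR-DT (Log2FC -0.12 ± 0.67). ARVCF, a catenin of cell junctions, had 715 and 531 in the controls against 676 and 662 with AP1AR-DT (Log2FC 0.10 ± 0.47). None of these groups was separate from the other.

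Genes of membrane traffic split by direction of the difference between replicates. PI4KA, a lipid kinase of the plasma membrane, had 938 and 471 in the controls against 746 and 597 with AP1AR-DT, and CLTCL1, a clathrin heavy chain, had 443 and 211 in the controls against 362 and 270.0 with AP1AR-DT. Both were lower in control 2 and in AP1AR-DT_OE 2. SNAP29, a SNARE protein of membrane fusion whose gene starts beside PI4KA on the other strand, had 492 and 749.8 in the controls against 465 and 672 with AP1AR-DT, and was higher in control 2 and in AP1AR-DT_OE 2. The Log2FC of the 3 was -0.07, -0.05 and -0.13, each smaller than its error.

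P2RX6, an ATP-gated ion channel, was set by a single library. It had 95.7 and 82.5 in controls 1 and 2 and 15.4 and 106 in AP1AR-DT_OE 1 and 2, so that AP1AR-DT_OE 1 stood far below the other 3 and AP1AR-DT_OE 2 above both controls (Log2FC -0.55 ± 0.87, 95% interval -2.25 to 1.16). Its Log2FC was 0.25 without AP1AR-DT_OE 1, -2.55 without AP1AR-DT_OE 2 (unadjusted p = 0.0212, adjusted p = 1.00, DESeq2 Wald) and -1.07 under the replicate block. P2RX6 shares 69 exon bases with THAP7-AS1 on the same strand, and the 2 summed gave 267 and 267 counts for the controls and 210 and 300 for AP1AR-DT_OE, with a Log2FC of 0.05. P2RX6 made up 6.67% of that sum in AP1AR-DT_OE 1 and between 31.5% and 40.1% in the other libraries. CLDN5, the claudin of endothelial tight junctions, had between 7 and 18 counts, and SLC7A4, of the cationic amino acid transporter family, was at 0 in 3 libraries and at 3 counts in AP1AR-DT_OE 1.

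DGCR6 and DGCR6L are near-identical copies, DGCR6 being the first gene of the interval, so their reads may be split between them. DGCR6 had 286 and 172 in the controls against 316 and 281 with AP1AR-DT, and DGCR6L had 2046 and 1239.6 in the controls against 1939 and 1532 with AP1AR-DT. DGCR6L was higher than DGCR6 in every library also per kilobase, at between 1058 and 1745 against between 53.0 and 97.4, and in neither were the groups apart (Log2FC 0.38 ± 0.54 and Log2FC 0.08 ± 0.47). Summed, the copies gave 2047 and 1830 counts for the controls and 2056 and 1827 for AP1AR-DT_OE, with a Log2FC of 0.12 ± 0.47.

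Levels of different genes were compared after division by the length of the longest transcript, which was known for 40 of the 41. On that scale, SCARF2 led with 5389 normalized read counts per kilobase as the mean of the 4 libraries. SLC25A1 followed with 3007, and DGCR6L with 1441 and DGCR2 with 1409 were also high. The points of the last 2 overlapped in the plot by length, so their order is within the spread of the libraries. At the lower end stood UFD1L with 22.2, P2RX6 with 27.5 and CDC45 with 30.0. DGCR8 had 357 and HIRA 244 per kilobase. GC content and the length of 1 chosen transcript both enter this scale.

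**Figure D4:**
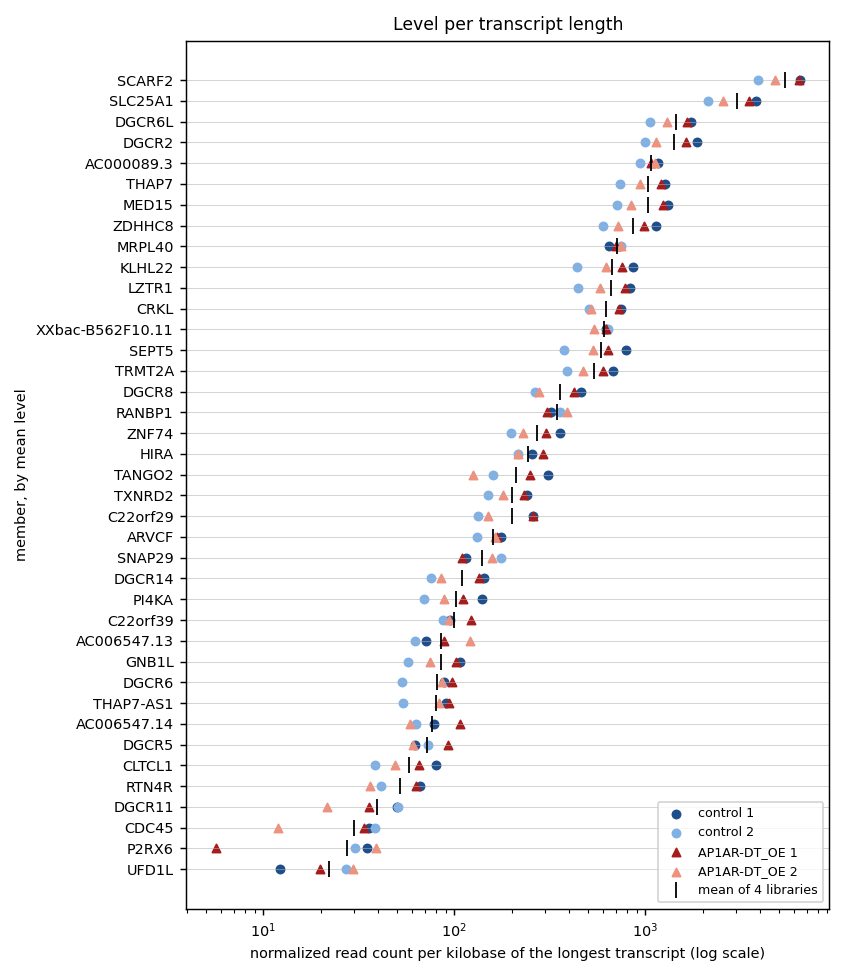
Normalized read count per kilobase of the longest transcript (log scale) for 39 genes, ordered by the mean of the 4 libraries (black tick). Points are libraries, and neighbours in the order mostly overlap. SCARF2 and SLC25A1 are highest, and UFD1L, P2RX6 and CDC45 lowest.

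The most regular pattern among the 41 genes was between libraries of the same group. Control 2 was lower than control 1 for 33 genes, with a median log2 ratio of -0.72 against -0.05 over all genes at that level. AP1AR-DT_OE 2 was lower than AP1AR-DT_OE 1 for 34 genes, with a median of -0.39 against -0.03. In 30 genes both were lower, and in 4 both were higher, namely MRPL40, UFD1L, RANBP1 and SNAP29. The sign of the comparison also differed between the replicate numbers. The median log2 ratio of AP1AR-DT_OE over control was -0.08 within number 1 and 0.22 within number 2, and 24 of the 41 genes were below 0 in number 1 and above 0 in number 2. Only 13 had the same sign in both.

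The difference between the controls went with base composition, and that between the AP1AR-DT_OE libraries did so less clearly among the genes of the interval. The median GC content of the longest transcript was 59.0% in the interval and 49.0% over all genes at that level. Spearman's rho between GC content and the log2 ratio of control 2 over control 1 was -0.41 across 40 genes of the interval and -0.77 across 13206 genes of the table. Between the AP1AR-DT_OE libraries it was -0.17 and -0.65. Both are given as descriptions, since genes of 1 library share its depth and preparation. Of the 17 genes with a GC content of at least 60%, control 2 was higher than control 1 in 1 and AP1AR-DT_OE 2 higher than AP1AR-DT_OE 1 in 0. Of the 17 genes from 50% to 60%, control 2 was higher in 3 and AP1AR-DT_OE 2 in 5. Of the 6 genes under 50%, control 2 was higher in 4 and AP1AR-DT_OE 2 in 2. The median log2 ratio of these 6 was 0.01 between the controls and -0.29 between the AP1AR-DT_OE libraries. The rest of chromosome 22, with a median GC content of 55.7%, had a median log2 ratio of -0.54 between the controls. The part of GC content in these ratios was not tested, and with a correction for it 1 gene of the interval was called where none had been, AC006547.15 (adjusted p = 0.0402, DESeq2 Wald), and with the replicate block added its adjusted p was 0.276.

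**Figure D5:**
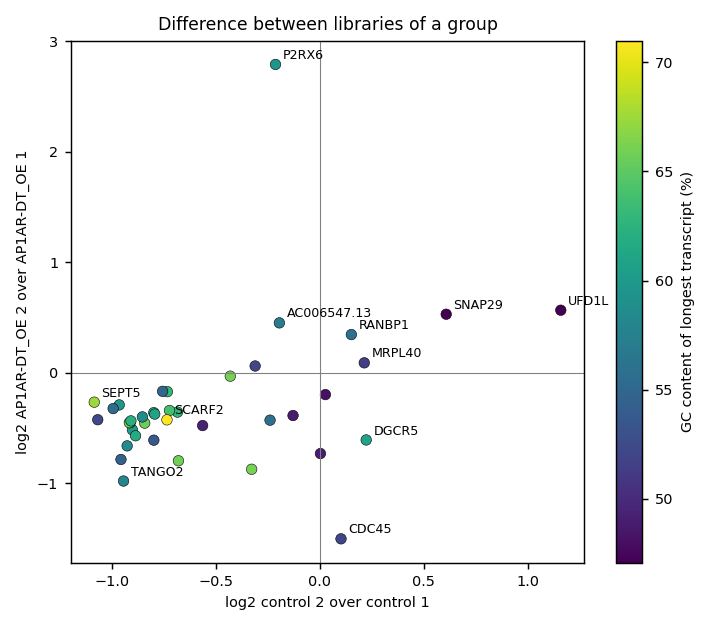
Log2 ratio of control 2 over control 1 (horizontal) against AP1AR-DT_OE 2 over AP1AR-DT_OE 1 (vertical), 1 point per gene with a known GC content, coloured by the GC content of its longest transcript. Most points lie in the lower left, with SNAP29 and UFD1L among the few in the upper right, and P2RX6 and CDC45 far from the rest on the vertical axis.

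Neighbouring genes that start back to back could be read against each other, since such pairs may share a promoter. KLHL22 and MED15 start 69 bases apart on opposite strands and had Log2FC of 0.08 and 0.04. Their control 2 over control 1 log2 ratios were also close, at -0.96 and -0.89. PI4KA and SNAP29, which overlap, with their starts 410 bases apart, had Log2FC of -0.07 and -0.13 but control ratios of -0.99 and 0.61, with GC contents of 55.4% and 47.2%. UFD1L and CDC45, 255 bases apart, had Log2FC of 0.31 and -0.69. ARVCF and TANGO2, 191 bases apart, had 0.10 and -0.33. TRMT2A and RANBP1, which overlap with starts 1454 bases apart, had Log2FC of 0.00 and 0.02 and control ratios of -0.80 and 0.15. THAP7 and THAP7-AS1, which overlap with starts 310 bases apart, had Log2FC of 0.09 and 0.30 and control ratios of -0.79 and -0.76. Each of these Log2FC was smaller than its standard error, and the pairs were not tested against each other.

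MicroRNAs lie inside 4 of the genes described here, and their mature sequences are shown because the level of the host RNA was measured here while that of the microRNA was not analysed. The sequences are from RefSeq (GRCh38.p14), 5′ to 3′, with the seed (bases 2 to 8) in capitals.
hsa-miR-185-5p (chr22:20033153-20033174, + strand): uGGAGAGAaaggcaguuccuga
hsa-miR-185-3p (chr22:20033188-20033209, + strand): aGGGGCUGgcuuuccucugguc
hsa-miR-3618 (chr22:20085797-20085818, + strand): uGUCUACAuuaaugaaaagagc
hsa-miR-1306-5p (chr22:20086072-20086093, + strand): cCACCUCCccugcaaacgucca
hsa-miR-1306-3p (chr22:20086112-20086129, + strand): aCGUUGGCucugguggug
hsa-miR-6816-5p (chr22:20114726-20114746, - strand): uGGGGCGGggcaggucccugc
hsa-miR-6816-3p (chr22:20114693-20114710, - strand): gAAGGACCugcaccuucg
hsa-miR-1286 (chr22:20249145-20249165, - strand): uGCAGGACcaagaugagcccu
No seed occurs more than once among them. miR-185 lies in TANGO2, miR-3618 and miR-1306 in DGCR8, miR-6816 in TRMT2A and miR-1286 in RTN4R, each on the strand of its host. The Log2FC of these hosts was -0.33, -0.05, 0.00 and -0.12 in that order, each smaller than its standard error.

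Partners of these proteins encoded elsewhere in the genome were counted as a list of 20, made of DROSHA, the histone chaperone partners of HIRA, the helicase partners of CDC45, NPLOC4 and VCP, and the RAN cycle. All 20 were above the floor in all libraries, and 0 were called by DESeq2's Wald test, against 0.137% of all genes. At an unadjusted p under 0.05 there were also 0, against 0.816% of all genes, so 0 of 20 is near both shares. Their Log2FC ran from -0.17 for UBN2 to 0.27 for GINS2, with a median of 0.08. DROSHA, the nuclease partner of DGCR8, had a Log2FC of -0.05.

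The other 32 genes of the interval had a mean under 50. Of all 73, 23 were at or under 12 counts in every library and 43 were above it in every library. Those near 0 included 5 protein-coding genes, PRODH, CLDN5, TBX1, AIFM3 and SLC7A4, and the rest were lncRNAs, pseudogenes and small RNAs. TMEM191A, a pseudogene, had 4 and 38 counts in the controls against 10 and 65 with AP1AR-DT, higher in number 2 of both groups. RefSeq lists 45 protein-coding genes with a name in the interval, and 39 of them had a row. The other 6, FAM246C, GP1BB, GSC2, LRRC74B, SERPIND1 and TSSK2, were not analysed here.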

How the data were processed

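RNA-seq counts of 4 libraries of SK-N-SH cells were used, 2 per group, with group and replicate number taken from the sample titles. Per the paper's methods, the authors aligned reads to hg19 with HISAT2 and derived counts from StringTie with its accompanying script. The submitters' processing notes name TopHat2 2.0.4, SAMtools, HTSeq, Cuffdiff and edgeR 2.6.12 instead. The annotation and the use of strand are not given in the sources used here. The deposited counts are whole numbers without normalization. The table's GRCh38 positions were used to choose the genes. Its columns of fold changes and p-values from the authors' own tests were not used.

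All 24014 genes were fitted with DESeq2 1.42.0 in R 4.3.3 (Wald test, two-sided, no covariate, default independent filtering), with calls at an adjusted p under 0.05. Log2FC is AP1AR-DT_OE over control, ± its standard error. A low read pair was worth about 4 counts, since 3287 entries were 4 against 2136 at 3 and 1509 at 5, and the floor was 3 pairs, or 12 counts. Floors and intervals cover counting error or the fitted spread only. The libraries of a group were not copies of each other (chi-square per degree of freedom 158 for the controls and 68.7 for AP1AR-DT_OE over 16730 genes). Strand, biotype, length, GC content and exon overlap came from GENCODE v44 mapped to GRCh37, which matched 72 of the 73 genes by identifier.

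Named were AP1AR-DT, every gene of the interval whose normalized read counts averaged 50 or more, and any gene with an unadjusted p under 0.05. Other genes were named for their counts alone. 1 gene is included in the totals but is not reported here. The members and lists were chosen with earlier results of these data known, although the rule for the members used positions only. Alternatives were edgeR 4.0.16 with TMM factors, TMM factors in DESeq2, a filter of 10 counts in 2 libraries, no independent filtering, the replicate number as a block, a GC correction (lowess, span 0.3), counts divided by 4, means of 10 and 200, scaling by the library total and leaving out each library. Sums of AC006547.15 with TANGO2 and of DGCR6 with DGCR6L were chosen after seeing the data. The fit was tested on simulated data with the fitted spread, with changes set in genes of mean 50 or more. DESeq2 called 2 of 50 genes with a log2 change of 1, 29 of 50 with 2, 47 of 50 with 3 and 50 of 50 with 4. For edgeR the calls were 0, 18, 37 and 48 of 50 in that order. DESeq2 also called 57 genes in which no change had been set, more than the 33 called over the whole table in the data. An adjusted p under 0.05 was thus not a strict limit on false calls here. The simulation set no difference by GC content or replicate number.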

Additional observations from a re-analysis of the deposited data

How the results depend on the processing

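The count of called genes of the interval stayed at 0 except for 1 gene, AC006547.15, with TMM factors (Log2FC 5.41), with the GC correction (5.49) and without AP1AR-DT_OE 1 (6.34), so the leave-one-out range was 0 to 1. Summed with TANGO2, an alternative chosen after seeing the data, AC006547.15 had a Log2FC of -0.17, since the sum is mostly TANGO2. Over the whole table the 33 calls became 0 with edgeR (112 had an unadjusted p below 0.05) and 44 with edgeR and the replicate block (437), 55 with the GC correction, 60 with the GC correction and the replicate block, 15 with counts divided by 4, and 45 to 90 with 1 library omitted. The cause of these shifts was not tested. The 5 genes whose groups did not overlap became 1 of 31 at a mean of at least 200, where fewer genes are counted. The share over all genes at a mean of at least 200 is not given here, so this count has no background beside it. Depth limits the genes under 12 counts, and 2 libraries per group limit all others.

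With the replicate number as a block, 0 genes of the interval and 37 of the table were called, and the Log2FC of AC006547.15 was 4.36 with an adjusted p of 0.361. The deviations of same-numbered libraries correlated at 0.46 over 13298 genes and 0.35 over the 41 genes of the interval, but with only 2 pairs the libraries share no more than a number. Of 514 values of the 42 named genes under the alternatives, 79, from 35 genes, crossed 0. Of these, 5 with a standard error were past it, namely DGCR2 (0.46), CLTCL1 (0.58), ZDHHC8 (0.50) and PI4KA (0.51) without control 1 and SEPT5 (-0.43) without control 2, each from a Log2FC smaller than its error, and none of the 5 was called.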
